A study of Mus musculus with 6 samples.

Results

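The genes examined here encode 10 transcription factors of the heart, namely Gata4, Gata6, Nkx2-5, Tbx5, Tbx20, Mef2a, Mef2c, Mef2d, Hand2 and Irx4. They were picked out by gene name, from a list drawn up with earlier results of these data known, and all 10 were found among the 54232 genes of the table. Nuclear RNA was measured in 3 libraries from UtyGT mice and in 3 libraries from wild-type (WT) mice, all adult males. UtyGT mice carry the UtyGt(XS0378)Wtsi allele, a gene trap within an intron of Uty on the Y chromosome, which came from embryonic stem cells of the 129P2/OlaHsd strain and was backcrossed to C57BL/6J. The WT mice, without the trap, descended from 129P2/OlaHsd males that had been backcrossed to C57BL/6J over as many generations. In both groups nuclei were prepared from frozen left ventricles and sorted by flow cytometry for PCM1, which collects around cardiomyocyte nuclei, to yield 150000 nuclei per library. The trap is carried by every cell of the animal, and neither the exact age nor the number of animals behind a library is given. Each library has 1 of the numbers 11, 15 and 31, which occur once in each group. Values per library are given below in that order of numbers.

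These proteins bind DNA at different short sequences and act together: GATA factors recognise GATA motifs, NKX2-5 a homeodomain site, T-box factors a T-box element, MEF2 factors an element rich in A and T, and HAND2 an E-box with a basic helix-loop-helix partner. During heart development they switch on the genes of the contractile apparatus, of conduction and of the chambers, often by binding side by side and in contact with one another, and many stay expressed in adult cardiomyocytes. UTX, the protein of Kdm6a and the X-linked relative of UTY, has been found to interact with cardiac transcription factors in developing mouse hearts. The comparison of UtyGT with WT asks here whether the RNA of these factors differed in cardiomyocyte nuclei of mice with the trap.

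The libraries held between 19900137 and 22876369 gene reads in UtyGT and between 18204752 and 23252887 in WT. Values are normalised read counts, that is, reads per gene divided by 1 size factor per library. Differences are log2 fold changes of UtyGT over WT on the scale of log2(normalised read count + 1), with their standard error (SE), and were tested by limma over 16202 genes, those averaging 10 or more. P-values were adjusted after Benjamini and Hochberg and called under 0.05. Uty itself (minus strand of chromosome Y, 1096861 to 1245759, GRCm38) had 22.1, 14.1 and 19.9 normalised read counts in UtyGT, against 1212, 1332 and 1314 in WT, which fits the labels of all 6 libraries (log2 fold change -6.05, SE 0.18, adjusted p = 0.000113). The summed ventricular cardiomyocyte markers, 8 of 8 of which were measured, lay between 1954360 and 2243580 in UtyGT and between 1979640 and 2386770 in WT. This sum rests mainly on Ttn, with a mean of 1290230 over the 6 libraries, followed by Myh6 with 472978. The summed leukocyte markers varied far more, between 833 and 18858 in UtyGT and between 1991 and 24939 in WT, and were lowest in both libraries of number 15. The first principal component of the libraries, with 73.3% of the variance, set the same pair of libraries apart from the other 4. In such bulk samples, fewer cells of a type and less RNA per cell cannot be told apart.

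The RNA of all 10 transcription factors was present in every library, and none of them differed detectably between UtyGT and WT. Of the 10 genes 0 passed the adjusted threshold (limma, adjusted p = 0.999595 for each), and 0 had an unadjusted p under 0.05. Among all genes tested 0.00617% passed, which is 1 gene, Uty (2 genes, Uty and its neighbour Ddx3y, with the number as a block), and 1.2% had an unadjusted p under 0.05. With the DESeq2 or edgeR test on the reads recovered from the values, 0 of the 10 passed as well. UtyGT and WT values overlapped for 10 of 10 factors, whereas groups without overlap made up 5.42% of all genes. The median log2 fold change was 0.07 over the factors and -0.01 over all genes, with 6 of the 10 above 0, and the median absolute change was 0.08 over the factors and 0.10 over all genes. The 95% intervals extended from 0.807-fold, the lowest bound (Tbx5), to 1.52-fold, the highest (Hand2). The upper bounds of the other 9 factors lay between 1.09-fold (Mef2c) and 1.30-fold (Mef2d), and differences within the interval of a gene could not be resolved with 3 libraries per group.

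**Figure D1:**
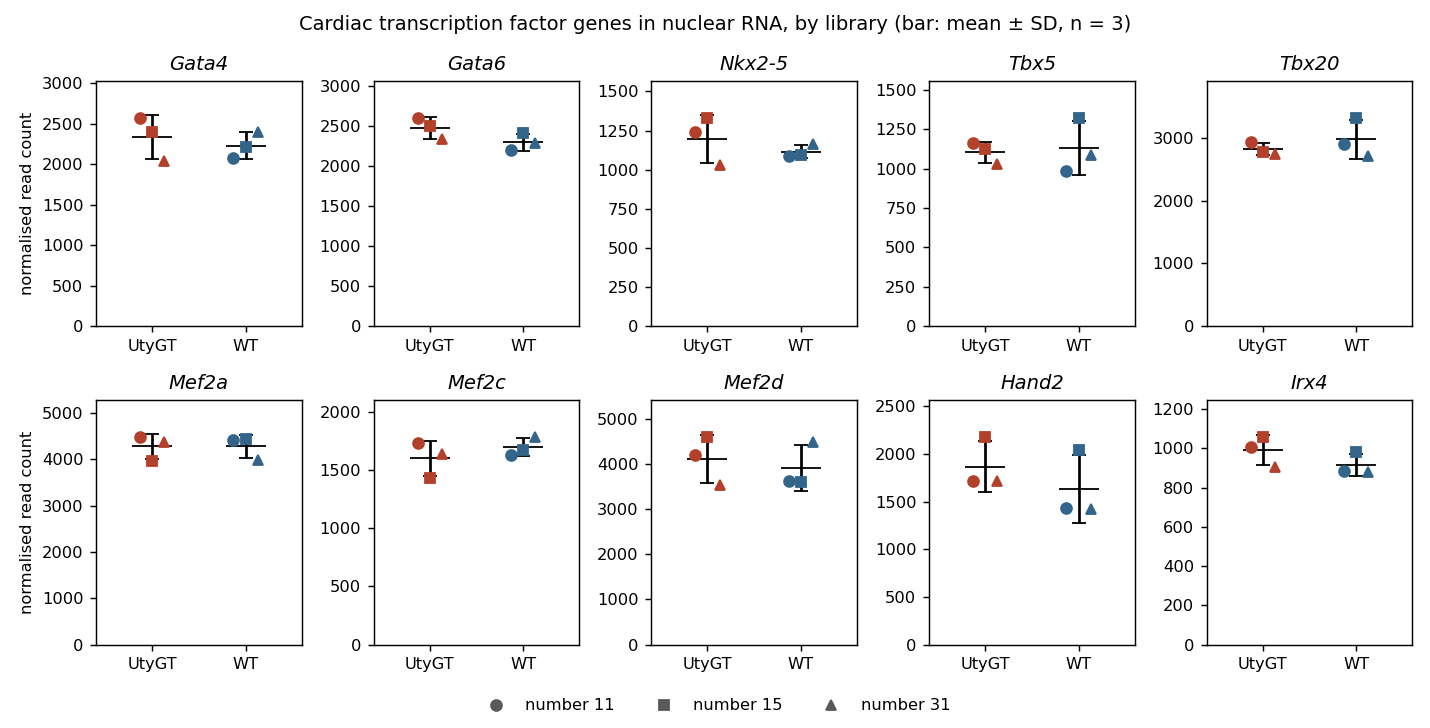
Normalised read count (vertical axes, from 0) of the 10 transcription factor genes in 3 UtyGT and 3 WT libraries, with symbols for the library numbers and bars for mean ± SD. The values of UtyGT and WT overlap in all 10 panels, and the spread between lowest and highest library is widest for Hand2 (1.53-fold).

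Gata4 and Gata6 encode zinc finger factors with overlapping roles in heart development, which activate genes such as Nppa and Nppb. Gata4 (minus strand of chromosome 14, 63198922 to 63271692) had 2565, 2403 and 2041 normalised read counts in UtyGT, against 2072, 2212 and 2403 in WT, with a mean of 2336 ± 268 in UtyGT and 2229 ± 166 in WT (SD, n = 3 each). Its lowest value was that of a UtyGT library, as was its highest, and the log2 fold change of 0.06 (SE 0.11) was below the spread between libraries. Gata6 (plus strand of chromosome 18, 11052064 to 11085635) had 2600, 2502 and 2338 in UtyGT, against 2200, 2416 and 2286 in WT. Its UtyGT library exceeded the WT library of the same number for all 3 numbers, by little for numbers 15 and 31, and the log2 fold change was 0.11 (SE 0.08). The log2 ratio of Gata4 to Gata6 within a library, which does not depend on the size factor, was -0.02, -0.06 and -0.20 in UtyGT and -0.09, -0.13 and 0.07 in WT. Its difference of -0.04 between groups was not significant (two-sided exact permutation test, p = 0.6, adjusted p = 0.7 over the 3 ratios tested), in a design whose smallest possible p is 0.1. Leaving out UtyGT 31 or WT 31 turned the sign of this difference.

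Nkx2-5 encodes the homeodomain factor of the cardiac lineage that pairs with GATA4 and TBX5 at target genes. It had 1237, 1327 and 1029 normalised read counts in UtyGT and 1089, 1093 and 1162 in WT (minus strand of chromosome 17, 26838664 to 26845009). The mean was 1198 ± 153 in UtyGT and 1114 ± 40.9 in WT (SD, n = 3 each), with a log2 fold change of 0.10 (SE 0.11), and the UtyGT values lay on both sides of the WT values.

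Tbx5, the T-box activator whose human counterpart is mutated in Holt-Oram syndrome, and Tbx20, a T-box factor needed to maintain adult heart function in mice, did not differ beyond the spread between libraries. Tbx5 (plus strand of chromosome 5, 119832668 to 119885219) had 1161, 1123 and 1031 normalised read counts in UtyGT and 986, 1320 and 1085 in WT. Tbx20 (minus strand of chromosome 9, 24718138 to 24774303) had 2937, 2789 and 2751 in UtyGT and 2905, 3318 and 2721 in WT. In both genes the highest value was that of WT 15, and the 3 UtyGT libraries lay closer together than those of WT. The log2 fold change was -0.02 (SE 0.12) for Tbx5 and -0.07 (SE 0.09) for Tbx20, and both signs turned when WT 15 was left out (0.09 for Tbx5 and 0.01 for Tbx20).

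The MEF2 family comprises MADS-box factors that respond to calcium signals in muscle and are held in check by class II histone deacetylases such as HDAC4 and HDAC9. Mef2a, the gene of the MEF2 protein that prevails in adult mouse heart, had the smallest ratio of highest to lowest library among the 10 genes, with 4488, 3977 and 4386 normalised read counts in UtyGT and 4427, 4433 and 3998 in WT (minus strand of chromosome 7, 67231163 to 67372858). That ratio was 1.13, and the group means were 4284 ± 270 in UtyGT and 4286 ± 250 in WT (SD, n = 3 each; log2 fold change -0.00, SE 0.08). Mef2d, which takes part in stress-dependent remodelling in mice, had 4202, 4610 and 3540 in UtyGT and 3636, 3618 and 4505 in WT (plus strand of chromosome 3, 88142372 to 88172086). The order of its libraries differed between groups, with number 31 lowest in UtyGT and highest in WT, and the log2 fold change was 0.07 (SE 0.13). Mef2c, which is needed early in heart development, had 1734, 1437 and 1639 in UtyGT and 1633, 1678 and 1787 in WT (plus strand of chromosome 13, 83504034 to 83667080). It tended to neither side beyond the spread, with a log2 fold change of -0.09 (SE 0.09) and the lowest value in UtyGT 15.

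The balance among the MEF2 genes was compared within libraries. The log2 ratio of Mef2a to Mef2c was 1.37, 1.47 and 1.42 in UtyGT and 1.44, 1.40 and 1.16 in WT, a difference of 0.09 that was not significant (exact permutation test, two-sided p = 0.6, adjusted p = 0.7). The log2 ratio of Mef2a to Mef2d was 0.10, -0.21 and 0.31 in UtyGT and 0.28, 0.29 and -0.17 in WT, a difference of -0.07 (exact permutation test, two-sided p = 0.7, adjusted p = 0.7). This second ratio was negative in 1 library of each group, UtyGT 15 and WT 31, in which Mef2d was high and Mef2a low. Without UtyGT 15, WT 11 or WT 15 the sign of its difference turned, as did that of Mef2a to Mef2c without WT 31. Per kb of exon, Mef2d made up between 59.5% and 68.0% of the summed level of the 3 MEF2 genes in UtyGT and between 59.7% and 66.1% in WT, whereas Mef2c made up between 8.07% and 10.5% in UtyGT and between 9.99% and 10.5% in WT. These shares rest on all annotated exons of a gene, 14681 bases for Mef2a, 15715 for Mef2c and 5985 for Mef2d. Which transcripts were in use was not measured, so the shares are not settled as relative levels.

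Among the 7 factors for which a window was matched, Mef2a was the only one with a complete MEF2 element in the window from 250 bases before to 50 bases after a start site, as listed by RefSeq for GRCm38.p6. The 10-base element, which is spelled out by the capitals and was searched on both strands with no base altered, was present in 36 of 32851 such windows of the genome (0.110%). In Mef2a it covered bases 249 to 258 of the window and thus lay over the start site itself. The window is shown to place the element and is read along the minus strand (chr7:67372809-67373108).
Mef2a: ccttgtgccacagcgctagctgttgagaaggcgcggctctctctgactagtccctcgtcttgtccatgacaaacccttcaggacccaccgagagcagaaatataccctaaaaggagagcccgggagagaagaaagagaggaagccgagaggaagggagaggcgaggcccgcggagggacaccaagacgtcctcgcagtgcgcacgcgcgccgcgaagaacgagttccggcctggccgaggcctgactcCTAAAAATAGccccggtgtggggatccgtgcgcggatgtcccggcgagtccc
A match of letters is a description of the sequence, and binding at it was not measured here.

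Hand2 and Irx4 are linked to chamber identity. Irx4, a homeodomain factor of the ventricles that represses atrial genes, had 1006, 1059 and 907 normalised read counts in UtyGT and 882, 982 and 882 in WT (plus strand of chromosome 13, 73260479 to 73269608). Its UtyGT value was the higher one for all 3 numbers, although UtyGT 31 was below WT 15, and the log2 fold change was 0.11 (SE 0.09). Hand2, a basic helix-loop-helix factor needed for the embryonic right ventricle in mice, had 1712, 2179 and 1711 in UtyGT and 1432, 2042 and 1424 in WT (plus strand of chromosome 8, 57320983 to 57324633). Here each UtyGT library was again above the WT library of equal number, and within each group the library of number 15 stood apart from the other two. The mean was 1868 ± 270 in UtyGT and 1633 ± 355 in WT (SD, n = 3 each), with a log2 fold change of 0.21 (SE 0.17, 95% interval -0.20 to 0.61). This value depended on single libraries. It was 0.38 without WT 15 (unadjusted p = 0.0236, adjusted p = 0.851, limma), 0.26 without UtyGT 11 and 0.26 without UtyGT 31. By contrast, it was 0.12 without WT 11, 0.12 without WT 31 and 0.089 without UtyGT 15. Without both libraries of number 15 it was 0.26 (unadjusted p = 0.0316, adjusted p = 0.999894, limma). It was the largest of the 10 in the fit to all libraries, but not without UtyGT 15 or WT 31. With the number as a block, the unadjusted p of Hand2 was 0.0762 and its adjusted p was 0.999695 (limma). Among the factors 3, namely Gata6, Hand2 and Irx4, were higher in UtyGT for all 3 numbers and 0 were lower for all 3, beside 8.51% and 8.89% of all genes and 17.4% in either direction.

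**Figure D2:**
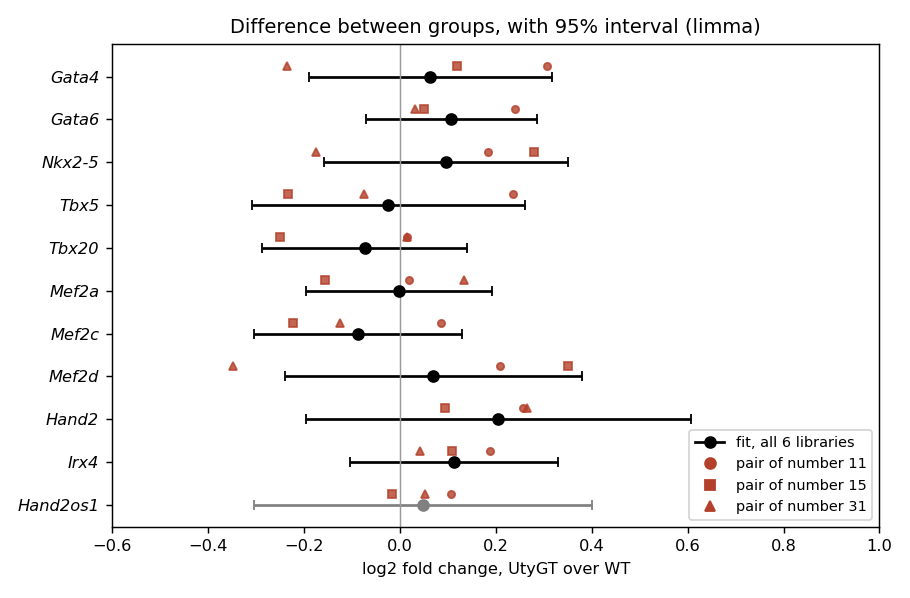
Log2 fold change of UtyGT over WT (horizontal axis) for the 10 factors and for Hand2os1, with the 95% interval of limma as bars and the difference within each pair of equal number as colored symbols. All intervals include 0, and that of Hand2 reaches farthest up, to 0.61.

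Apart from the groups, the numbers 11, 15 and 31 were compared with an F test (limma, group as covariate), since the labels do not say what the numbers stand for. Of the factors 0 passed this test after adjustment, beside 4.79% of all genes, and 1, Hand2, had an unadjusted p under 0.05 (unadjusted p = 0.01113, adjusted p = 0.169), beside 9.57% of all genes. Hand2 was the only factor for which both libraries of number 15 exceeded the other 4, a pattern found in 11.5% of all genes. In a contrast of number 15 with the mean of 11 and 31, which was added after the values had been seen, Hand2 was higher by 0.43 on the log2 scale (SE 0.11, adjusted p = 0.0549, limma), and again 0 of the 10 factors passed. That contrast called 6.15% of all genes, 0.0617% as higher and 6.09% as lower in number 15. All 10 of 10 leukocyte markers were among those lower, with a median log2 difference of -3.73, and none of the factors was. The 10 fibroblast markers had a median log2 difference of -1.15, and 0 of them were called. The part of the leukocyte and fibroblast RNA in the values of Hand2 was not tested.

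Hand2 shares its locus with Hand2os1, a long non-coding RNA transcribed from the opposite strand, which has been linked to Hand2 expression in the developing mouse heart. Hand2os1 (minus strand of chromosome 8, 57281117 to 57324233) had 4609, 5892 and 4855 normalised read counts in UtyGT and 4277, 5960 and 4683 in WT, and thus was likewise highest in both libraries of number 15. It did not differ between UtyGT and WT (log2 fold change 0.05, SE 0.15, adjusted p = 0.999595, limma), and its log2 difference between number 15 and the others was 0.36 (SE 0.11, adjusted p = 0.118, limma). Across the 6 libraries, which share their size factors and depth with both genes, Pearson's r between Hand2 and Hand2os1 was 0.92, which placed Hand2os1 at rank 194 among all tested genes. Of the 2351 bases of Hand2 exons, 461 (19.6%) also lay in exons of Hand2os1. Whether reads were counted by strand is not stated, and without strand the reads of the overlap cannot be told apart.

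**Figure D3:**
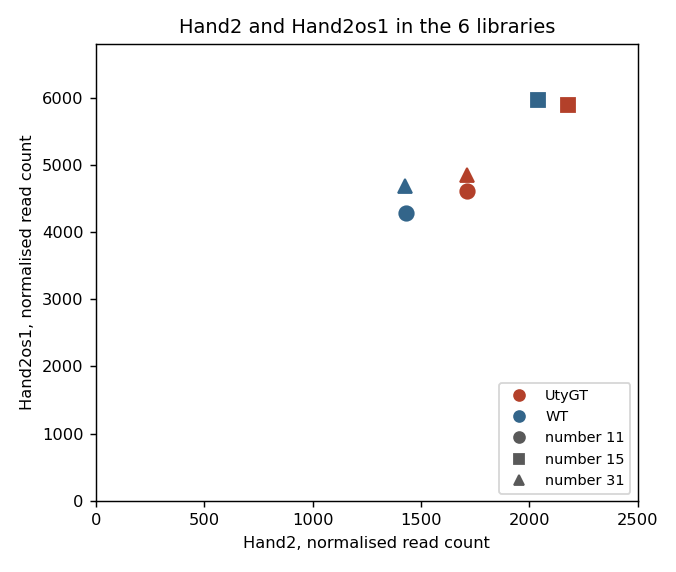
Normalised read count of Hand2 (horizontal axis) and Hand2os1 (vertical axis), each from 0, in the 6 libraries, with colors for the group and symbols for the library number. Both number 15 libraries, UtyGT with 2179 and WT with 2042 for Hand2, lie above the other 4 on both axes.

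RefSeq places the start sites of Hand2 and Hand2os1 at bases 57320983 and 57320859, that is, 124 bases apart, so that the windows around them share 223 bases. The Hand2 window (chr8:57320733-57321032, plus strand, GRCm38.p6) is shown because both of these start sites lie within it. The GENCODE gene Hand2os1 extends farther, to base 57324233, and the exon bases shared with Hand2 belong to transcripts other than those that start at 57320859. Capitals mark the E-box CATCTG at bases 5 to 10 and, at bases 79 to 84, the GATA motif AGATAA, which lies on the other strand and therefore reads TTATCT here. On either strand, 17.2% of all windows held this E-box and 11.2% this GATA motif. Only AGATAA was searched, so the TGATAA that the Hand2 window also holds is neither marked nor counted in that share.
Hand2: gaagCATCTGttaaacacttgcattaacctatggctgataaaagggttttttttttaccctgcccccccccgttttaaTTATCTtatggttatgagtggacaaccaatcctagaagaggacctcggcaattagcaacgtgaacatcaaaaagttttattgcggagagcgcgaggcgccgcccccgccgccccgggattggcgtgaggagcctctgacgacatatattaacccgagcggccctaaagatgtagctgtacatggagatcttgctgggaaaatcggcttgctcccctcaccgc
RefSeq windows were matched for 7 of the 10 factors. The windows of Nkx2-5, Tbx20, Mef2d and Irx4 held none of the 5 motifs searched, which also included the NKX2-5 element TNAAGTG (11.5% of all windows, either strand) and the T-box element AGGTGT (13.7% of all windows, either strand). The Nkx2-5 window (chr17:26841516-26841815, minus strand) lies inside the GENCODE gene, away from its start at base 26845009, where no window was searched. Of the 3 Mef2c windows, 1 held the T-box element and 1 the E-box.

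The levels of the factors were compared per kb of annotated exon (GENCODE M21), since longer genes collect more reads. The length takes in the exons of all annotated transcripts of a gene, and which of them were in use was not measured. A gene with many exons outside the transcripts in use would thus be placed too low. In this order Hand2 (744 normalised read counts per kb), Nkx2-5 (673), Mef2d (671) and Gata4 (585) came first, Gata6 (367), Irx4 (366), Mef2a (292), Tbx20 (242) and Tbx5 (239) followed, and Mef2c (105) was lowest. Neighbours in this order whose 6 values did not overlap were Gata4 above Gata6, Irx4 above Mef2a and Tbx5 above Mef2c. Hand2 was above Nkx2-5 in 4 of 6 libraries, Gata6 above Irx4 in 3 of 6 and Tbx20 above Tbx5 in 2 of 6, so that the order within these pairs is not settled. The reads per gene give a different order, led by Mef2a and Mef2d, because the exons of Mef2a amount to 14681 bases against 2351 for Hand2. How reads in the exon bases common to Hand2 and Hand2os1 were counted is not stated, so the per-kb level of Hand2 could be too high or too low by such reads.

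**Figure D4:**
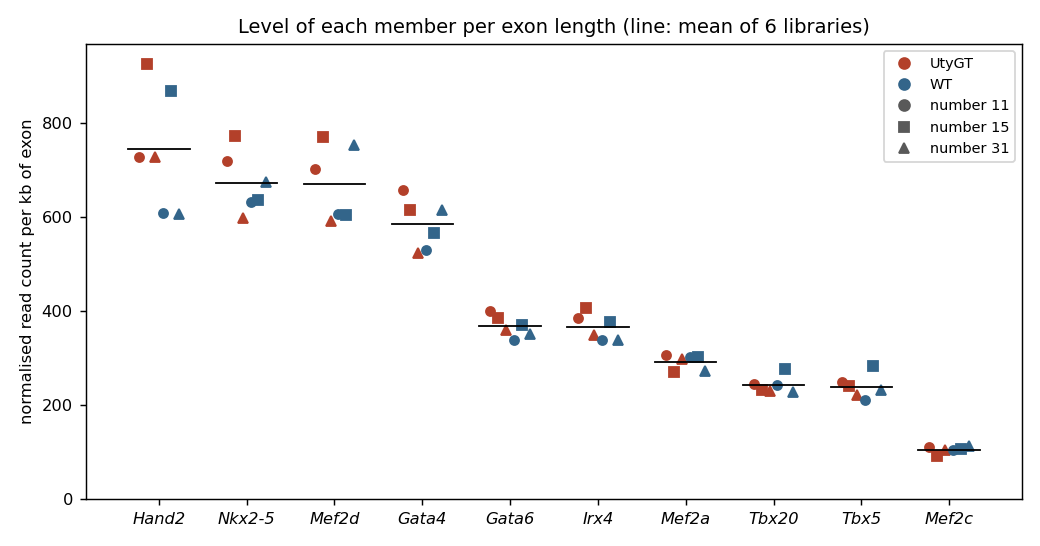
Normalised read count per kb of exon (vertical axis, from 0) of the 10 factors in order of their mean, with 1 symbol per library, colors for the group and lines for the mean of 6 libraries. Means lie between 585 and 744 per kb for the upper 4 genes, between 239 and 367 for the next 5, and at 105 for Mef2c, with UtyGT and WT intermixed throughout.

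The factors varied little between libraries. The median residual SD within groups was 0.12 on the log2 scale over the factors and 0.21 over all genes tested, which were not matched to them on level. Some factors nevertheless moved together, which is given as a description because the 6 libraries share their size factors and all pairs of factors were looked at. Nkx2-5 and Mef2d (r = 0.88), Gata4 and Nkx2-5 (r = 0.84) and Gata4 and Mef2d (r = 0.83) were each high in UtyGT 11 and UtyGT 15 and low in UtyGT 31. Gata6 and Irx4 (r = 0.88) as well as Hand2 and Irx4 (r = 0.88) also moved together, and Tbx5 and Tbx20 (r = 0.77) had their highest value in WT 15. The pairs did not fall into separate sets, with r = 0.74 between Nkx2-5 and Irx4 and r = 0.72 between Gata4 and Gata6. Mef2a ran opposite to Mef2d (r = -0.79). Over the mean log2 profile of the 10 factors, the most alike of all tested genes were Eml1 (r = 0.996), Slc26a8 (r = 0.994), Gm22767 (r = 0.991), Cpn2 (r = 0.991) and Rab3gap1 (r = 0.989), of which Slc26a8, Gm22767 and Cpn2 had means of only 19.2, 12.97 and 12.3 normalised read counts. They were picked as the highest r of 16202 genes over only 6 libraries, so such values are no sign of a link with the factors.

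**Figure D5:**
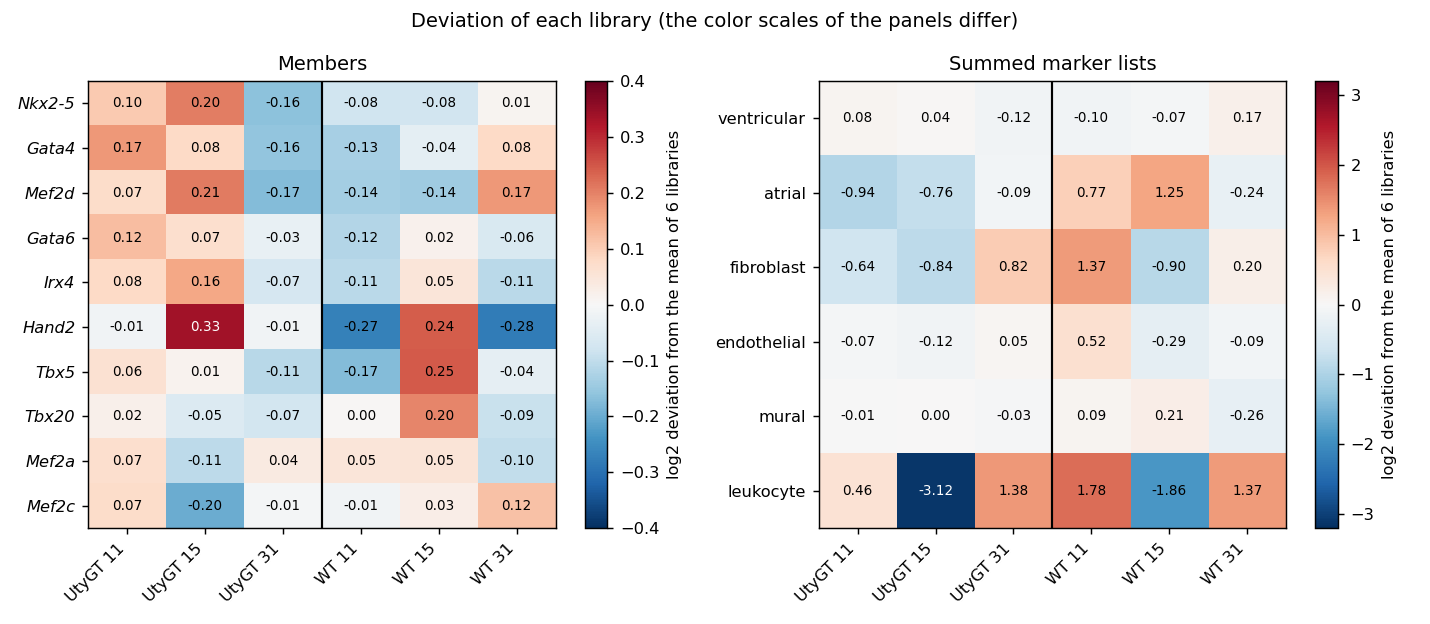
Log2 deviation of each library from the mean of 6 libraries for the 10 factors (left panel) and for summed marker lists of cell types (right panel), with UtyGT left of WT and a separate color scale per panel. The factors stay within 0.33 of their mean, the value of Hand2 in UtyGT 15, whereas the leukocyte sum reaches -3.12 in the same library.

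Relatives of the factors, their cofactors, the regulators of MEF2 and their known target genes were examined from fixed lists. In these 4 lists 0 genes passed the adjusted threshold between UtyGT and WT (limma). An unadjusted p under 0.05 was found for 2, both of them targets, beside 1.2% of all genes. Of 18 relatives, 8 were tested, 6 with a log2 fold change above 0 and 2 below, with a median of 0.11. The largest were Gata2 (-0.32, SE 0.46), a blood and endothelial GATA factor, Irx2 (0.30, SE 0.15) and Irx1 (0.27, SE 0.14). Irx2, like Irx4 an Iroquois homeodomain factor, had 161, 194 and 148 normalised read counts in UtyGT and 136, 139 and 131 in WT and was the only one of the 8 tested relatives whose groups did not overlap (adjusted p = 0.999595, limma). Groups without overlap made up 5.42% of all genes. Tbx3, a repressor of the conduction system, had 114, 127 and 120 in UtyGT and 111, 132 and 102 in WT. Some relatives were nearly or wholly without reads in both groups. Gata5, below the limit for testing, had at most 7 reads in a library, with 3.16, 1.88 and 1.05 normalised read counts in UtyGT and 6.56, 5.53 and 4.32 in WT, and Hand1, a factor of the embryonic left ventricle, and the progenitor factor Isl1 had 0 reads in every library, which allows up to 3 reads per library.

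Of 24 cofactors, 22 were tested, 10 with a log2 fold change above 0 and 12 below (median -0.01), and of 14 MEF2 regulators 13 were tested, 6 above and 7 below (median -0.01). The cofactors Zfpm2, a partner of GATA4, Myocd and Srf, which act together on contractile genes, and Tead1 had log2 fold changes of -0.04, 0.02, 0.05 and -0.02. Those of Foxp1, Mrtfa and Zfpm1 were the largest in size, with -0.14, -0.11 and 0.09. Mrtfa, an actin-dependent coactivator of SRF, had 337, 231 and 363 normalised read counts in UtyGT and 442, 194 and 415 in WT, and fell in number 15 in the contrast added later (log2 difference -0.87, SE 0.17, adjusted p = 0.0164, limma), although not in the F test (adjusted p = 0.0542, limma). These are the libraries in which the summed leukocyte and fibroblast markers were lowest, and the part of RNA from such cells was not tested. Kdm6a had 1131, 1282 and 1193 in UtyGT and 1034, 1362 and 1103 in WT, a log2 fold change of 0.05 (SE 0.12). Among MEF2 regulators, the largest changes were those of Camk2b (-0.17, SE 0.30), a kinase that relays calcium signals, Prkd1 (-0.17, SE 0.18), a kinase that expels class II deacetylases from the nucleus, and Hdac4 (0.13, SE 0.14), and that of Hdac9 was 0.04 (SE 0.13).

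Of the 22 target genes, all of which were tested, 14 had a log2 fold change above 0 and 8 below, with a median of 0.04. An unadjusted p under 0.05 (limma) was found for 2 of them, Nppa and Hcn4, beside 1.2% of all genes. Nppa, the gene of atrial natriuretic peptide, had 530, 581 and 925 normalised read counts in UtyGT and 1501, 2177 and 810 in WT, so that UtyGT 31 and WT 31 overlapped (log2 fold change -1.07, SE 0.37, adjusted p = 0.999595, limma). Hcn4, a pacemaker channel gene, had 281, 255 and 322 in UtyGT and 210, 255 and 205 in WT (log2 fold change 0.35, SE 0.14). Gja5, the gene of an atrial and conduction gap junction protein, had 19.99, 20.7 and 15.7 in UtyGT and 59.1, 69.1 and 14.0 in WT (log2 fold change -1.02, SE 0.59). Nppa and Gja5 thus had the same order of groups for numbers 11 and 15 and the opposite one for 31. For number 31 Gja5 had only 15 reads in UtyGT and 13 in WT, so its order there is not settled. The atrial cardiomyocyte markers, a list that includes Nppa, were below 0 in 9 of 9 cases, with a median log2 fold change of -1.49. Of these markers 0 of 9 passed after adjustment, and 6 had an unadjusted p under 0.05 (limma), beside 1.2% of all genes. Their sum lay between 771 and 1390 in UtyGT and between 1251 and 3520 in WT. The part of atrial RNA in the values of Nppa and Gja5 was not tested. Among contractile targets, Myh6, the main myosin heavy chain gene of adult mouse heart, had a log2 fold change of 0.10 (SE 0.22), and Myl3, named here because it was the only target whose groups did not overlap, one of 0.17 (SE 0.10). Among all genes tested, 5.42% had groups without overlap, so 1 such gene among 22 targets is no result about the targets.

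Between numbers, 1 of the 22 targets passed the F test, beside 4.79% of all genes. Nppb, the gene of brain natriuretic peptide, had 4905, 3186 and 4372 normalised read counts in UtyGT and 6000, 3083 and 5872 in WT, and was lowest in number 15 in both groups (log2 difference between number 15 and the others -0.74, SE 0.13, adjusted p = 0.00802; F test, adjusted p = 0.0261, limma). The call of the F test was lost without WT 15 (adjusted p = 0.647), with no filter on low values (adjusted p = 0.0823) and with edgeR on the recovered reads (adjusted p = 0.0632). The part of leukocyte and fibroblast RNA, whose marker sums were lowest in the same libraries, was not tested. Hand2 and Nppb thus took opposite courses over the numbers. The windows of the natriuretic peptide genes are shown because they hold motifs of these factors. In Nppa (chr4:148000472-148000771, plus strand) capitals mark a T-box element on the other strand at bases 3 to 8 and an NKX2-5 element at bases 10 to 16, separated by a single base and lying at the far end of the window from the start site, and in Nppb (chr4:147985650-147985949, plus strand) a GATA motif at bases 167 to 172 (RefSeq, GRCm38.p6). The windows of Nppa and Nppb also hold TGATAA, which was not searched and is not marked, so they do not differ in having a GATA sequence.
Nppa: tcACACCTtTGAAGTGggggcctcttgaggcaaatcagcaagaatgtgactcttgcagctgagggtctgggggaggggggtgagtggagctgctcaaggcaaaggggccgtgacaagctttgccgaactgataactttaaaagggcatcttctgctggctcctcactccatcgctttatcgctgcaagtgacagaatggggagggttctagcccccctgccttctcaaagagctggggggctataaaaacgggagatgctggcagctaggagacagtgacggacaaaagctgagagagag
Nppb: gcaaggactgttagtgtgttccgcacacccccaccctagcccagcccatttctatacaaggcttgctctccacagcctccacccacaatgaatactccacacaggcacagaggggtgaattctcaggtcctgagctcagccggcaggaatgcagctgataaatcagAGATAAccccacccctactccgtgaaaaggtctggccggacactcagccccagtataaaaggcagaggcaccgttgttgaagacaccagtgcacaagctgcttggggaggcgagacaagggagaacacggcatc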

How the data were processed

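Nuclear total RNA of PCM1-sorted left ventricular nuclei was converted to stranded libraries without poly(A) selection. The authors aligned reads to GRCm38 (STAR 2.5.1b), counted them per gene (featureCounts 1.6.0) and scaled them with DESeq2 1.22.2; the strand setting is not stated. The deposited values are a signal in normalised read counts, that is, gene counts divided by 1 size factor per library. A deposited table of 4 libraries, numbers 11 and 31, was scaled on its own. The deposited columns of the authors' own comparison (mean, log2 fold change, SE, statistic, p-value and adjusted p-value) were not used.

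Whole reads were recovered for 100% of values (tolerance 0.0001 reads), and served for edgeR 4.0.16 and DESeq2 1.42.0 as alternatives. The main test was limma-trend (limma 3.58.1, R 4.3.3) on log2(value + 1), two-sided, for genes with a mean of at least 10, and was tested on simulated data. Intervals are 95% intervals. Counting intervals and floors (3 reads for a count of 0) cover counting error only. The members and lists were chosen with earlier results of these data known. Named were all members, Uty, opposite-strand genes of members, called genes or the 3 largest changes of each of 4 lists, some genes by role, and the 5 genes most like the mean profile of the members. The study gives 3 samples per strain but not how many animals gave each library, so p-values measure the spread between libraries, which may in part be technical.

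Deviations from group means of libraries of equal number correlated across genes (r = 0.25 for 11, 0.80 for 15 and 0.41 for 31), so the number also served as a block; crossed libraries correlated too (0.73 for UtyGT 31 with WT 11). Libraries of a group differed beyond sampling noise (chi-square per degree of freedom of at least 17).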

Additional observations from a re-analysis of the deposited data

How the results depend on the processing

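With 3 libraries per group, small differences could not be resolved, and all values are of nuclear RNA, not protein. None of the 10 factors passed the adjusted threshold in any of the 19 alternative fits of UtyGT against WT (lowest adjusted p 0.851, without WT 15). With the number as a replicate block, 2 genes in all passed in limma (Uty and Ddx3y) and 4 in DESeq2 (also Apoe and Lyz2), against 1 without it; the block changed no call of a factor, and DESeq2 without the block called 2. Leaving out single libraries gave between 1 and 2 genes. The F test between numbers called 776 genes, 478 with a mean of at least 50, and between 369 (without WT 15) and 1244 (without UtyGT 11) when a library was left out; it called 0 factors under any alternative. Of the log2 fold changes, those of Gata6, Nkx2-5, Mef2c, Hand2 and Irx4 kept their sign in 19 of 19 alternatives, though not their size: with single libraries left out they ranged from 0.073 to 0.149 for Gata6, 0.018 to 0.202 for Nkx2-5 (0.0047 without both libraries of number 15), -0.146 to -0.010 for Mef2c, 0.089 to 0.377 for Hand2 and 0.063 to 0.174 for Irx4. Without both libraries of number 15 the sign turned for Tbx5 (0.081), Tbx20 (0.016), Mef2a (0.077), Mef2d (-0.069) and the log2 ratio of Mef2a to Mef2d (0.146), and in the deposited table of 4 libraries, which are the same ones, for Tbx5 (0.086), Tbx20 (0.021), Mef2a (0.082) and Mef2d (-0.064). With single libraries left out, the log2 fold change ranged from -0.0068 to 0.158 for Gata4, from -0.116 to 0.093 for Tbx5, from -0.136 to 0.0067 for Tbx20, from -0.050 to 0.051 for Mef2a and from -0.015 to 0.175 for Mef2d, and the log2 ratio differences ranged from -0.084 to 0.016 for Gata4 to Gata6, from -0.00028 to 0.138 for Mef2a to Mef2c and from -0.225 to 0.067 for Mef2a to Mef2d. The exact sign-flip test on pairs gave p = 1, 0.75 and 0.75 for these 3 ratios. The cause of these turns was not tested.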
